A study of Mus musculus with 13 samples.

Results

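Annexins and the S100 proteins that bind them were followed as a set of 10 genes: Anxa1, Anxa2, Anxa3, Anxa4, Anxa5, Anxa6, Anxa7, Anxa11, S100a6 and S100a10. They are 10 of 21893 named genes on the array, and all 10 were found. The set was chosen by gene symbol with the difference between the genotypes already known, so that difference is described here without a test. RNA came from the coeliac and superior cervical ganglia, which hold sympathetic neurons, taken from mice aged 2 weeks. One group of 6 arrays came from TH-MYCN+/+ mice, homozygous for a transgene that expresses human MYCN from a tyrosine hydroxylase promoter and gives neuroblastoma in sympathetic tissue. The other group of 7 arrays came from wild-type littermates of the same age, with no transgene and no treatment in either group. Nothing in the labels ties an array to an animal, so a p-value here speaks of array-to-array spread, part of which may be technical. No batch is labelled. Their number limits the precision.

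Annexins are proteins that bind acidic phospholipids in the presence of calcium, through a folded core that all members share. They differ in the tail before this core, and it is the tail that S100 proteins grip, so that a pair of S100 molecules can bring annexins and their membranes together. Annexins are known for membrane repair, vesicle traffic and the restraint of inflammation. They are abundant in fibroblasts, endothelium, Schwann cells and macrophages, and Anxa2 and S100a10 also occur in sensory neurons.

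Promoter sequence was looked at because all members were lower in the same genotype. RefSeq windows (mouse build GRCm38.p6) were matched for 7 of the 10 members, in 9 windows, and none was matched for Anxa3, Anxa6 or S100a10. The 250 bases before the start were searched on both strands for the letters CACGTG (the E-box of Myc and Max), TGAGTCA (AP-1), GGAATG (TEAD) and GGGCGG (Sp1), and no match overlapped another. The windows of Anxa2 (chr9:69453433-69453682, plus strand), Anxa7 (chr14:20479942-20480191, minus strand, the window at the more downstream of its 2 starts) and Anxa1 (chr19:20390672-20390921, minus strand) are shown because each holds a match, and that of S100a6 (chr3:90612644-90612893, plus strand) because it holds none. Sequences run 5′ to 3′ and capitals mark the matches.
Anxa2: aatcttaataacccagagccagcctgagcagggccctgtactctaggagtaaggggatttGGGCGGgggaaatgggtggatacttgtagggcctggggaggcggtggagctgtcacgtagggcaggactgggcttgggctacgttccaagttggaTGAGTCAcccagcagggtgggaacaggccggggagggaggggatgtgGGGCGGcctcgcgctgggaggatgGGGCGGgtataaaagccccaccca
Anxa7: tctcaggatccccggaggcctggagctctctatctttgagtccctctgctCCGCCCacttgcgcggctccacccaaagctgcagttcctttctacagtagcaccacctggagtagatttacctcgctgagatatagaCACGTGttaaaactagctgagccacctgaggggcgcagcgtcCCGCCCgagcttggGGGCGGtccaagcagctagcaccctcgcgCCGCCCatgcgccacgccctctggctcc
Anxa1: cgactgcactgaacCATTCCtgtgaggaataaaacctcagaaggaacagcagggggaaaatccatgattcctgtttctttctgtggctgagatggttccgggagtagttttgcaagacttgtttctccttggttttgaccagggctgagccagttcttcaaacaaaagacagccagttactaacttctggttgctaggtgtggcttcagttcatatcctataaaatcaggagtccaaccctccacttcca
S100a6: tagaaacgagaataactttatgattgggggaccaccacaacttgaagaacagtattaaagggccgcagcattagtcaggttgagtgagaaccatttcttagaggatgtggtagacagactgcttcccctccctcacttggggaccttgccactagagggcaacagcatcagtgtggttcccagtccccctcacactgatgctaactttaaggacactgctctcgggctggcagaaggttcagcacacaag
The AP-1 letters were found in the window of Anxa2 alone among the members, at position -95 from the start, and in 4.46% of 32851 promoters. The E-box letters were found in the window of Anxa7 alone, at position -113, against 6.02% of all promoters. The TEAD letters were found in the window of Anxa1 alone, against 12.6%. The Sp1 letters stood in 4 of the 9 member windows, those of Anxa2, Anxa7 (both) and Anxa11, against 32.7% of all promoters. The Anxa7 windows overlap in the genome. The only match of the upstream window is also a match of the other, so that site is counted in both. A match is a description of the letters, and no binding was measured.

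Every array carried 55821 probes, of which 140 were controls. From 56.3% to 63.0% of the other 55681 were brighter than the background of their array, taken as the 95th percentile of 96 ERCC control probes. Values are log2 intensities after quantile normalization between arrays. The base of the logarithm was inferred from the range of the values. The 14 measured sympathetic neuron markers lay above background on all arrays. Lists of lymphocyte, skeletal muscle and adrenal cortex markers were raised by over 2 log2 units above the median array on 4 arrays. These were TH-MYCN+/+ replicate 5 (lymphocyte, by 2.04), TH-MYCN+/+ replicate 6 (skeletal muscle, by 4.27), wild-type replicate 1 (adrenal cortex, by 3.04) and wild-type replicate 3 (lymphocyte, by 4.79). Other lists were not searched in this way. The summed adipocyte level was highest on TH-MYCN+/+ replicate 2 (16.01, against 15.07 to 15.52 in wild type), which is not among the 4. Wild-type replicates 1 and 2 deviated together from the other wild-type arrays over the 10946 genes with the higher mean levels (r = 0.75). Without those 2 arrays the members differed by -1.16 to -1.70 on the log2 scale, and without the 4 arrays with neighbouring tissue by -1.16 to -1.88, against -1.09 to -1.71 over all arrays.

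All 10 members were lower in TH-MYCN+/+ ganglia, and for all 10 the highest TH-MYCN+/+ array lay below the lowest wild-type array. Among all genes 61.8% had a log2 difference below 0 and 23.1% were lower without overlap, and nothing is read from the members' count beside it, since the same contrast chose them. The median log2 difference of the members was -1.31, against -0.15 for all genes. In bulk tissue, fewer cells of a type and less RNA per cell cannot be told apart. The size of the difference depended on the scaling between arrays while its direction did not. The members' median was -1.47 after median centring, -1.33 after centring on the 75th percentile, -0.88 in the values as deposited and -0.72 when arrays were set to equal E1A spike-in signal. The median of all genes moved with it, to -0.44, -0.30, 0.14 and 0.30. All 10 members were free of overlap after both kinds of centring, 3 as deposited, and 0 after spike-in scaling.

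**Figure D1:**
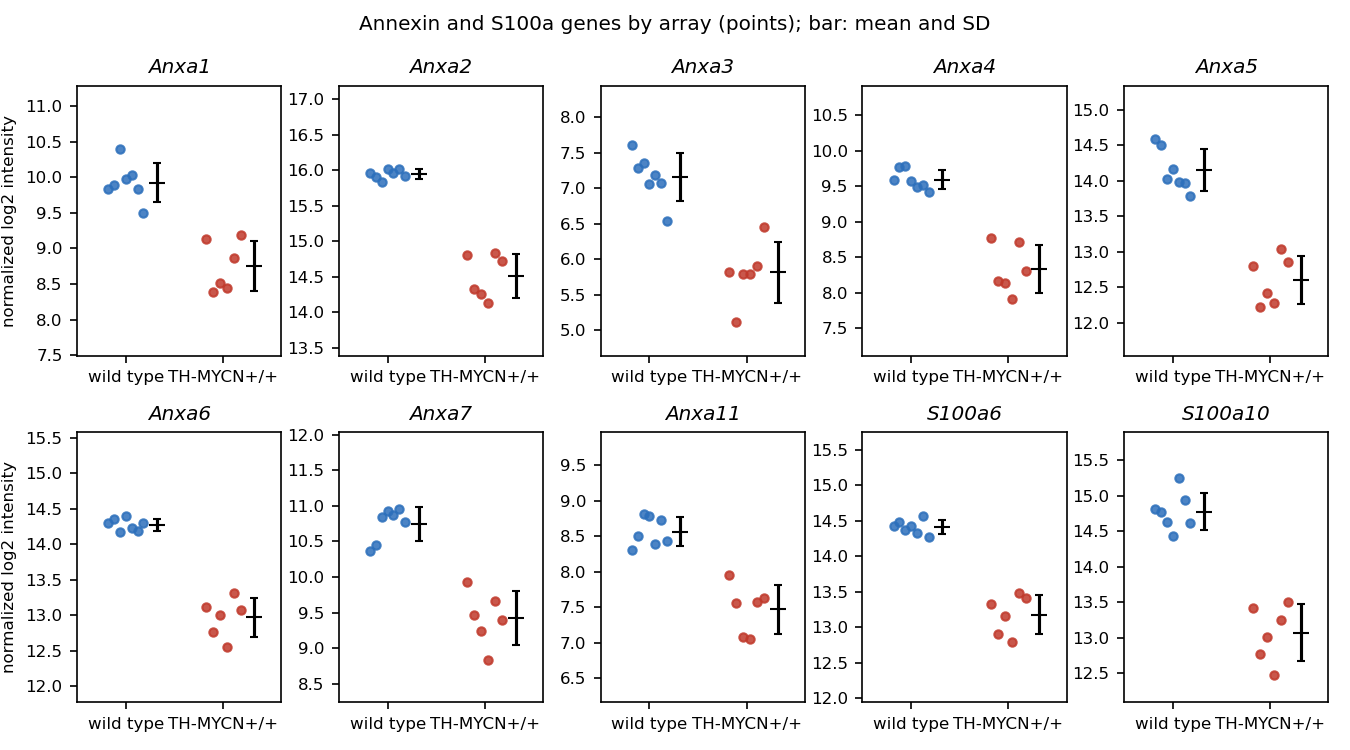
Normalized log2 intensity of each gene on each array, wild type (blue, 7 arrays) and TH-MYCN+/+ (red, 6 arrays), with the mean and SD in black. Each panel spans the same range of log2 units, and in each the TH-MYCN+/+ arrays lie below the wild-type arrays, with the narrowest gap for Anxa3 and the widest for Anxa2.

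The S100a10 and Anxa2 pair came first. S100a10, also called p11, is an S100 protein that does not bind calcium and forms a complex with annexin A2 at the plasma membrane. S100a10 lay between 12.47 and 13.51 (median 13.13) on the TH-MYCN+/+ arrays and between 14.43 and 15.24 (median 14.77) on the wild-type arrays. These ranges were 0.92 apart, and the log2 difference of -1.71 ± 0.18 (SE, n = 6 and 7), a level 3.26-fold lower, was the largest of the set. Anxa2, which S100a10 binds and which also holds plasminogen at the cell surface, lay between 14.13 and 14.84 (median 14.52) against 15.83 to 16.02 (median 15.96). Its log2 difference was -1.43 ± 0.12 (SE), 2.70-fold lower. The wild-type arrays were tightly grouped for Anxa2 (SD 0.07, n = 7) and the TH-MYCN+/+ arrays were spread (SD 0.31, n = 6), and the gap of 0.99 between the genotypes was the widest among the 10 genes. Saturation flags were not analysed here.

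S100a6, calcyclin, is a calcium-binding S100 protein reported to bind annexins A2, A6 and A11. S100a6 lay between 12.79 and 13.48 (median 13.24) on the TH-MYCN+/+ arrays and between 14.27 and 14.57 (median 14.42) on the wild-type arrays. Its log2 difference was -1.23 ± 0.11 (SE), 2.35-fold lower, smaller than that of S100a10.

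Among annexins of the plasma membrane and of inflammation, Anxa5 differed most. Anxa5, known as the protein that binds phosphatidylserine on dying cells, lay between 12.23 and 13.03 (median 12.61) against 13.79 to 14.58 (median 14.02). Its log2 difference was -1.54 ± 0.17 (SE), 2.91-fold lower. Wild-type replicates 1 and 2 were its highest arrays, at 14.58 and 14.50, and the other wild-type arrays did not exceed 14.17. Anxa1, a glucocorticoid-induced protein that limits inflammation through formyl peptide receptors, lay between 8.39 and 9.19 (median 8.69) against 9.50 to 10.41 (median 9.89), a log2 difference of -1.17 ± 0.17 (SE). Its highest wild-type value was that of replicate 3, an array with lymphocyte markers. A second, dimmer Anxa1 probe differed by -1.32.

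Anxa6, an annexin with a duplicated core that acts in endocytosis and cholesterol traffic, was also tightly grouped in wild type. It lay between 12.55 and 13.32 (median 13.04) on the TH-MYCN+/+ arrays against 14.17 to 14.40 (median 14.29), a log2 difference of -1.30 ± 0.11 (SE), 2.47-fold lower. Anxa4, typical of secretory epithelia, lay between 7.91 and 8.77 (median 8.23) against 9.42 to 9.79 (median 9.57), a log2 difference of -1.26 ± 0.14 (SE). Its second probe was above background on 1 of 13 arrays and gives no level.

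Anxa3 was the dimmest member and its ranges came closest together. Anxa3, found in neutrophils and in several epithelia, lay between 5.12 and 6.45 (median 5.81) against 6.54 to 7.61 (median 7.18), which left a gap of 0.09. Its log2 difference was -1.34 ± 0.20 (SE). Both arrays that faced each other across the gap stood apart from their own groups: TH-MYCN+/+ replicate 6, the array with skeletal muscle markers, held 6.45 where the others did not exceed 5.91, and wild-type replicate 7 held 6.54 where the others did not fall below 7.05.

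Anxa11 and Anxa7 carry long tails that bind the calcium sensor Pdcd6 and, for Anxa7, sorcin. Anxa11, which links RNA granules to lysosomes for transport along axons, lay between 7.05 and 7.95 (median 7.56) against 8.30 to 8.81 (median 8.51). Its log2 difference of -1.09 ± 0.15 (SE), 2.13-fold lower, was the smallest of the set. Its second probe was above background on 4 of 13 arrays. Anxa7, synexin, lay between 8.83 and 9.93 (median 9.43) against 10.37 to 10.96 (median 10.84), a log2 difference of -1.32 ± 0.16 (SE), 2.50-fold lower.

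The 2 Anxa7 probes gave similar differences between the genotypes, -1.32 for the brighter and -1.40 for the dimmer, but they went opposite ways among the wild-type arrays. The brighter probe held 10.37 and 10.45 on wild-type replicates 1 and 2 and 10.78 to 10.96 on the other 5 wild-type arrays. The dimmer probe held 9.98 and 9.83 on those replicates and 9.19 to 9.35 on the other 5. The 2 arrays were thus the lowest by the one probe and the highest by the other. The same 2 arrays stood apart over all genes, and the part this has in the probe pattern was not tested.

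**Figure D2:**
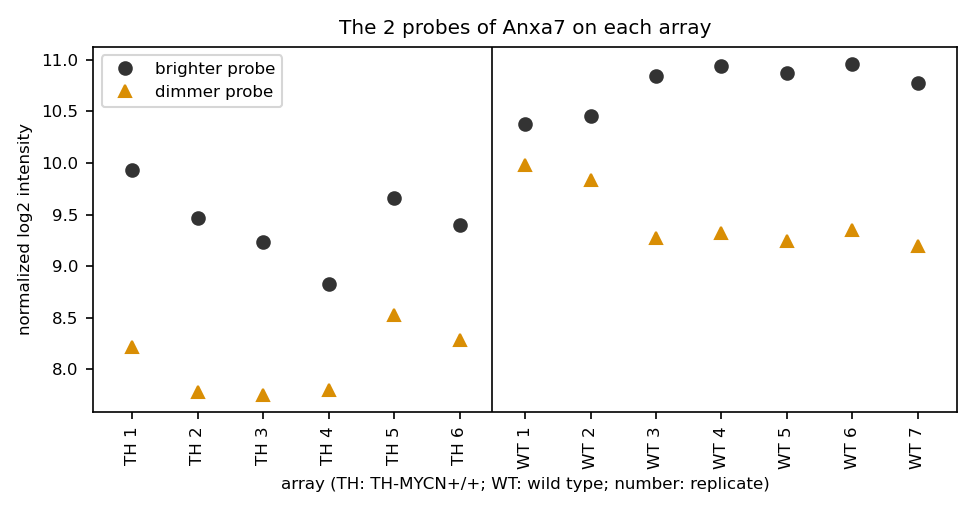
Normalized log2 intensity of the 2 Anxa7 probes (circles, brighter; triangles, dimmer) on the 6 TH-MYCN+/+ arrays (TH) and 7 wild-type arrays (WT). Both probes are lower on the TH-MYCN+/+ arrays, and on WT 1 and WT 2 the brighter probe is low (10.37 and 10.45) while the dimmer is high (9.98 and 9.83).

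The arrays were then compared within each genotype. The members were chosen as genes lower in TH-MYCN+/+ ganglia, and the brighter genes set beside them were not matched for direction, so that choice enters here too and the covariation is a description. Among the TH-MYCN+/+ arrays the members varied together. Replicate 4 was the lowest array for 7 of the 10 members and replicate 2 for the other 3, while replicates 1 and 5 lay above the mean of their genotype for all 10 and replicate 6 for 8. Over the 10946 brighter genes TH-MYCN+/+ replicates 1 and 4 also deviated in opposite directions (r = -0.77). The part this has in the members' covariation was not tested. Over the 45 pairs of members the median Pearson r was 0.81 (n = 6 arrays) and all 45 were above 0, where the median over all pairs of the 10946 brighter genes was close to 0 (5.86e-05). Among the 7 wild-type arrays the median r of the members was 0.03, with 26 of 45 pairs above 0 and values from -0.83 to 0.77. All these arrays share 1 normalization. The TH-MYCN+/+ median stayed between 0.80 and 0.92 under the other 4 scalings, but the wild-type median reached 0.61 after median centring, 0.22 after centring on the 75th percentile, 0.84 as deposited and 0.85 after spike-in scaling. The brighter genes as a whole reached 0.62, 0.20, 0.82 and 0.81 in the same wild-type arrays. On the TH-MYCN+/+ arrays they stood at 0.16, 0.01, 0.58 and 0.79 under these 4 scalings, so the members' values as deposited and after spike-in scaling stand beside high values for brighter genes in general. Whether the genotypes differ in this covariation was not tested.

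**Figure D3:**
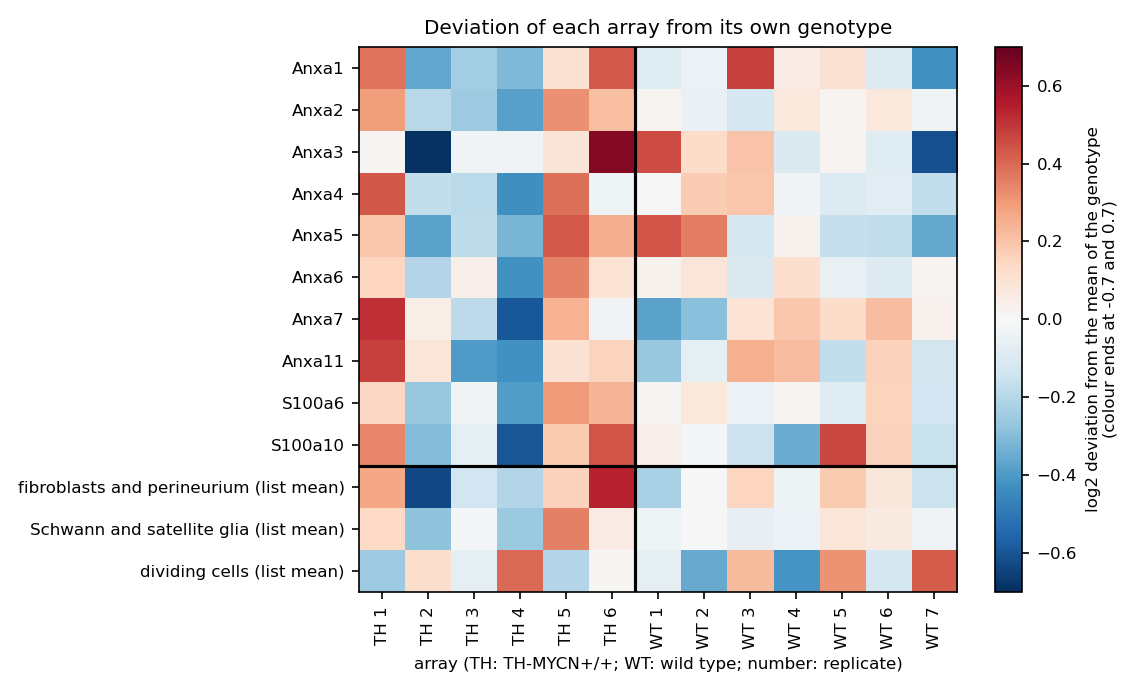
Log2 deviation of each array from the mean of its own genotype for the 10 genes (upper rows) and for the mean of 3 marker lists (lower rows), TH-MYCN+/+ at left and wild type at right. TH 4 is below the mean for all 10 genes and TH 1 and TH 5 above it, while in wild type the order of arrays differs from gene to gene.

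Some marker lists had extremes on the same TH-MYCN+/+ arrays and others did not. The summed level of the fibroblast and perineurium list was lowest on replicate 4 (16.14) and highest on replicate 1 (16.92), with 16.83 and 16.85 on replicates 5 and 6. As a mean over its genes the same list was lowest on replicate 2 (8.93) and highest on replicate 6 (10.09). The summed level of the dividing cell list was highest on replicate 4 (16.75) and lowest on replicate 1 (16.10), with 16.25 on replicate 5. That of the sympathetic neuron list was lowest on replicate 4 (17.97) and highest on replicate 5 (18.65). The summed level of the glial list was 15.46 on replicate 4 and 15.40 on replicate 1, lowest on replicate 2 and highest on replicate 5. As a mean over its genes the glial list was lowest on replicate 2 (9.27), with 9.29 on replicate 4. That mean was highest on replicate 5 (9.90), with 9.69 on replicate 1. For the endothelial list the summed level was lowest on replicate 4 (12.85) and highest on replicate 2 (13.33). Their part in the covariation was not tested.

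Known binding pairs were set against each other within each genotype, 10 relations in all, by exact two-sided permutation tests with Benjamini-Hochberg adjustment. The tests ask whether 2 genes vary together at all. On the TH-MYCN+/+ arrays all 45 pairs of members had r above 0 (median 0.81). A low p there does not set a binding pair apart from other pairs, which was not tested. In TH-MYCN+/+ ganglia Anxa6 and S100a6 covaried (Pearson r = 0.96, exact permutation p = 0.00278, adjusted p = 0.0278, Spearman coefficient = 0.94, exact p = 0.0167, adjusted p = 0.167, n = 6). Without the 2 arrays farthest from the median of Anxa6 r was 0.94. With any 1 of the 6 TH-MYCN+/+ arrays left out r stayed between 0.93 and 0.99. The adjusted p was then 0.0833 to 0.167, but 5 arrays allow no exact permutation p below 0.00833, which is 0.0833 after adjustment for 1 relation among 10. Anxa2 and S100a10 did not pass in TH-MYCN+/+ ganglia (r = 0.90, exact permutation p = 0.0306, adjusted p = 0.102, Spearman coefficient = 0.71, exact p = 0.136, n = 6), and r was 0.90 without the 2 farthest arrays. In wild type the same pair had r = 0.17 (exact permutation p = 0.719, adjusted p = 0.898, Spearman coefficient = 0.20, exact p = 0.667, n = 7), and -0.08 without the 2 farthest arrays. The other wild-type pairs rose without the 2 arrays farthest from the median of their first gene. For Anxa6 with S100a6 r went from 0.03 to 0.67, and for Anxa2 with S100a6 from 0.40 to 0.85. It went from 0.37 to 0.68 for Anxa11 with S100a6 and from -0.08 to 0.29 for Anxa1 with S100a11. None of the 5 wild-type relations passed after quantile normalization, with exact adjusted p-values of 0.589 to 0.950. How many of the 10 relations passed depended on the scaling: 2 after either kind of centring, 6 as deposited and all 10 after spike-in scaling.

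For each member the genes with the most similar deviations from the genotype means were found among 10409 brighter named genes, over 13 arrays that share normalization. Anxa1 was most like C1ra (r = 0.97), a complement protease, and Matn2 (r = 0.93), a matrix protein. Anxa3 was most like Scara5 (r = 0.88), a scavenger receptor of fibroblasts, and C1s1 (r = 0.88), another complement protease, with Casq2 (r = 0.88) next. Anxa7, by its brighter probe alone, was most like Synj1 (r = 0.97), the synaptojanin phosphatase. The dimmer Anxa7 probe, which went the opposite way among the wild-type arrays, was not compared. Anxa2 was most like Tango2 (r = 0.96) and Trim21 (r = 0.95). S100a10 was most like Gal3st1 (r = 0.93), a sulfotransferase of myelin lipid synthesis, with Wwtr1 (r = 0.93), Taz, a paralog of Yap, among the first 3. The first genes for Anxa4, Anxa5 and Anxa6 were Dtx3l (r = 0.91), Sypl (r = 0.95) and Cdc42ep2 (r = 0.95). For Anxa11 and S100a6 they were Hsd17b11 (r = 0.89) and Pigz (r = 0.92). Not all of the first 3 genes of each member are named. All are the highest of 10409 values, so a high r comes partly from that choice. These values are given as a description.

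Genes related to the members but outside the set were tested in a limma fit over all 21893 genes, with an adjusted p under 0.05. Of all genes 53.2% were called, 34.3% lower and 18.9% higher in TH-MYCN+/+ ganglia. Of 55 measured related genes 30 were lower and 3 higher, and their median log2 difference was -1.06 against -0.15 for all genes. After spike-in scaling 15 were lower and 5 higher.

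The other S100 genes fell in most cases. Of 14 measured, 9 were lower and 0 higher (median -1.26), where 34.3% of all genes were lower. S100b, the S100 protein of Schwann and satellite glia, lay between 8.57 and 9.73 on the TH-MYCN+/+ arrays and between 11.04 and 11.48 in wild type. Its log2 difference of -1.98 ± 0.16 (SE, adjusted p = 7.94e-07 by limma) was the largest fall of the list. S100a11, the known partner of annexin A1, lay between 9.92 and 11.35 against 12.25 to 12.81, a log2 difference of -1.70 ± 0.20 (SE, adjusted p = 1.06e-05). S100g, a calbindin, fell as well (-1.79), as did S100a1 (-1.51), which is prominent in heart and muscle. S100a13, S100a3 and S100a4, a fibroblast marker, had log2 differences of -1.29, -1.26 and -1.26. S100a16 was lower too (-1.04, and -0.31 by its dimmer probe), and its call and that of S100a3 ended with spike-in scaling (adjusted p = 0.107 and 0.138). S100a8 and S100a9 form calprotectin in neutrophils. S100a8 was called (-1.46, adjusted p = 0.0360), with 1 of 6 TH-MYCN+/+ arrays above background, and lost the call under 13 of 25 alternatives, among them those without TH-MYCN+/+ replicate 2, 3, 4 or 6 or wild-type replicate 1, 2, 4, 5 or 7 (adjusted p = 0.0539 to 0.0841). The highest TH-MYCN+/+ value of S100a8, 5.04, was that of replicate 5, which also had the highest summed neutrophil level (9.26). The neutrophil list holds S100a8 and S100a9 themselves, so this level is not separate from their own values. S100a9 was highest on the same array (7.63) and was not called (-1.25, adjusted p = 0.0730). S100a5 did not pass (-0.22, adjusted p = 0.259), and S100a7a and S100z were below background on all arrays.

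**Figure D4:**
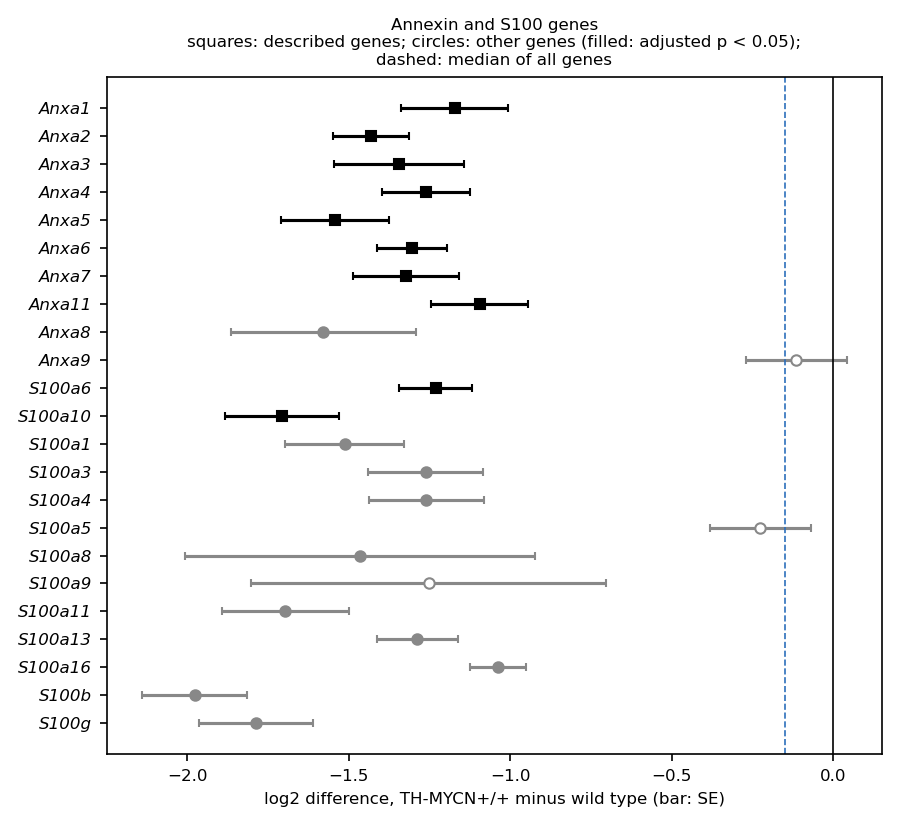
Log2 difference, TH-MYCN+/+ minus wild type, with its SE for annexin and S100 genes above background on 6 or more arrays. Squares are the 10 described genes, without a test, circles the other genes of both families, filled where the adjusted p is under 0.05, and the dashed line is the median of all genes at -0.15. Anxa9, S100a5 and S100a9 are the open circles, and the first 2 lie near the dashed line.

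The other annexins were 4, of which 2 were lower and 0 higher. Anxa8, an annexin of epithelia, lay between 4.49 and 5.72 against 5.76 to 7.16, a log2 difference of -1.58 ± 0.29 (SE, adjusted p = 4.00e-04). Anxa9, which has lost calcium-binding residues, stood at 5.39 to 6.37 against 5.63 to 6.20 and did not pass (-0.11, adjusted p = 0.575). Anxa10 was above background on 0 of 6 TH-MYCN+/+ and 3 of 7 wild-type arrays. Its call (adjusted p = 0.0360) was lost under 13 of 23 alternatives, among them those without TH-MYCN+/+ replicate 1, 3, 4 or 6 or wild-type replicate 1, 2, 3 or 5 (adjusted p = 0.0594 to 0.0702). Anxa13 was below background on all arrays.

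Partners and receptors were mixed. Of 19 measured, 9 were lower and 1 higher (median -0.59). Ahnak, a giant scaffold that the annexin A2 and S100A10 complex holds at the membrane, lay between 11.96 and 12.77 against 13.33 to 13.94 (-1.28, adjusted p = 1.33e-05). Of its 3 dimmer probes 2 had log2 differences of -1.51 and -1.53 and the third 0.05. Sri, sorcin, lay between 9.53 and 10.25 against 10.89 to 11.48 (-1.27, adjusted p = 4.14e-06). Dlc1, a tumour suppressor protein that binds S100A10, was 2.83-fold lower (adjusted p = 1.50e-05). Of ion channels that S100A10 brings to the surface, Scn10a (-1.66) and Asic1 (-1.71) were lower, while Kcnk3 (-0.32, adjusted p = 0.0847) and Trpv6 (-0.35, adjusted p = 0.188) did not pass, nor did Trpv5, which was above background on 1 of 13 arrays. Of the serotonin receptors linked to S100A10, Htr4 went the other way: it lay between 5.33 and 6.28 on the TH-MYCN+/+ arrays, was below background on all 7 wild-type arrays and was at least 6.28-fold higher (adjusted p = 3.02e-07). That is the value of 1 of its 2 probes, and the other was below background on all arrays (log2 difference 0.03). For this bound each wild-type value was first raised to the lowest signal above background on its array. The call of Htr1d (2.00-fold lower, adjusted p = 0.0450) was lost under 15 of 25 alternatives, among them those without TH-MYCN+/+ replicate 3, 4 or 5 or wild-type replicate 1, 2, 3, 4 or 5 (adjusted p = 0.0546 to 0.105). Pdcd6, which binds Anxa7 and Anxa11, and Cacybp, which binds S100A6, did not pass (-0.19 and -0.30, adjusted p = 0.121 and 0.103). Sugt1, another S100A6 ligand (-0.64), Tlr4 (-1.10) and the phospholipase Pla2g4a (-1.09) were called lower, and these 3 did not pass with spike-in scaling (adjusted p = 0.641, 0.330 and 0.401) or as deposited (adjusted p = 0.236, 0.109 and 0.125). The other Tlr4 probe was below background on all arrays. Fpr2, a receptor of annexin A1, was above background on 1 of 7 wild-type arrays and on 0 of 6 TH-MYCN+/+ arrays, and Fpr1 was not analysed here.

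Among 7 genes of the plasminogen system 2 were lower and 1 higher. Plat, tissue plasminogen activator, which the annexin A2 complex binds, lay between 6.36 and 7.29 against 7.93 to 8.59 (-1.31, adjusted p = 9.55e-06), and did not pass with spike-in scaling (adjusted p = 0.0613). Serpinb2, an inhibitor of plasminogen activators, was 3.08-fold lower (adjusted p = 8.09e-04), and with spike-in scaling its adjusted p was 0.0956. Plgrkt, another plasminogen receptor, rose: it lay between 10.17 and 10.74 against 9.31 to 9.88 (0.81, adjusted p = 3.79e-05). Plau, Plaur, Plg and Serpinf2 did not pass.

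Of 11 membrane repair genes 8 were lower and 1 higher (median -1.15), where 34.3% of all genes were lower. Myof is among the 8, and was above background on 0 of 6 TH-MYCN+/+ and 2 of 7 wild-type arrays. Dysf, dysferlin, a calcium sensor of wound resealing that binds annexins, lay between 10.30 and 11.32 against 12.24 to 12.55 (-1.43 ± 0.14 SE, adjusted p = 3.49e-06). The calpain subunits Capn1 and Capns1 fell by 1.79 and 1.15 on the log2 scale, and the caveolar genes Cav1 and Cavin1 by 1.74 and 1.18. With spike-in scaling 3 of the 8 were still lower, Dysf, Capn1 and Cav1. Capns1 and Cavin1 did not pass (adjusted p = 0.0939 and 0.0742), nor did Capn2, Ehd2 and Myof (adjusted p = 0.289, 0.0900 and 0.127). Pdcd6ip and Chmp4b, which act in membrane scission and repair, did not pass (-0.06 and -0.41, adjusted p = 0.510 and 0.0777). A dimmer Pdcd6ip probe, above background on all arrays, differed by -0.55. The call of Trim72, a muscle repair protein that was higher (1.15, adjusted p = 0.0264), was lost under 7 of 24 alternatives: without TH-MYCN+/+ replicate 4 or 6 or wild-type replicate 1, 2 or 5 (adjusted p = 0.0511 to 0.0627), without wild-type replicates 1 and 2 (0.0987) and without the 4 arrays with neighbouring tissue (0.101). Its highest value, 4.20, was on TH-MYCN+/+ replicate 6, the array with skeletal muscle markers.

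Markers of several cell types that hold annexins were lower as well after quantile normalization, where 34.3% of all genes were lower. Counts of markers under the other scalings are not given here. All 15 fibroblast and perineurium markers were measured, 14 were lower and 1 higher, and their summed level lay between 16.14 and 16.92 in TH-MYCN+/+ and between 18.04 and 18.35 in wild-type ganglia. Of 12 measured Schwann and satellite glia markers 10 were lower and 1 higher, with a summed level of at least 16.10 on the wild-type arrays and below that on every TH-MYCN+/+ array. Of 12 endothelial markers 11 were lower and 0 higher, with a summed level of 12.85 to 13.33 against 13.72 to 14.29. Macrophage markers did not fall together: of 12, 3 were lower and 5 higher, and the summed levels overlapped, with 13.88 to 14.96 in wild type and a highest TH-MYCN+/+ value of 14.82. Nor did epithelial markers: of 13 measured, 4 were lower and 3 higher, and the summed levels overlapped (11.61 to 12.43 against 11.40 to 12.19). Of 12 neutrophil markers 4, Ly6g, Mmp8, Mmp9 and Ngp, were below background on every array. The dividing cell markers were higher for all 9 measured (16.10 to 16.75 against 12.28 to 12.86). Of 14 sympathetic neuron markers 11 were lower and 2 higher (17.97 to 18.65 against 19.32 to 19.59). The part of these cell types in the members' difference was not tested.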

How the data were processed

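RNA was isolated with an RNeasy kit, labelled with Cy3 and hybridised to 1-colour Agilent arrays, per the labels' protocols. The values the authors deposited are taken to be log2 intensities, the base being inferred from their range. The sources used here do not give the background correction. Array medians lay between 3.94 and 5.07, so array probes were quantile normalized.

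Platform symbols named 30626 probes and 21893 genes, and the probe with the highest mean stood for its gene. The 10 members had 14 probes, of which 12 lay above background on all arrays. The fit was limma 3.58.1 (R 4.3.3), with genotype as the only factor and two-sided moderated tests, with Benjamini-Hochberg adjustment over all genes. Members are described without a p-value. The fit was tested on simulated data. It recovered 34% of changes of 0.5 log2 units, 72% of changes of 1 and 96% of changes of 2, with 50 genes each. A small difference that did not pass is thus not shown to be absent.

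The members and all lists were chosen with earlier results of these data known. Of 59 related genes 55 were analysed, and the others are not reported here. The named genes were the members, the called related genes, some related genes not called whose role is described, and the 3 genes most like each member. The text gives some of them. Dixon's test on 86 groups looked for outlying arrays. Alternatives were other scalings, filters on dim genes, the mean of probes, variance models, array weights, the replicate number as a block and each array left out. The 2 sets of arrays left out together were chosen after seeing the data.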

Additional observations from a re-analysis of the deposited data

Results flagged for a closer look

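Of 86 groups of arrays (43 genes in 2 genotypes) 5 held an array far from the others by Dixon's test, where chance flags about 1 in 20, and none of the 5 is a member of the annexin and S100a set. S100a13 was at 9.81 on TH-MYCN+/+ replicate 4, and the other TH-MYCN+/+ arrays held 10.38 to 10.68. Htr4 was at 6.28 on the same array, above the 5.33 to 5.64 of the others. Pla2g4a was at 5.38 on wild-type replicate 4, below the 6.29 to 6.66 of the other wild-type arrays. Tlr4 was at 4.96 on wild-type replicate 7 against 5.80 to 6.31, and Myof at 0.79 on the same array against 2.11 to 3.04, most of these below background.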

How the results depend on the processing

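All 10 members were lower in TH-MYCN+/+ ganglia under each of the 25 alternatives run. Their median log2 difference of -1.31 became -0.72 with spike-in scaling and -0.88 as deposited, and lay between -1.21 and -1.37 with any 1 array left out. Of the related genes 30 lower and 3 higher became 15 and 5 with spike-in scaling, 5 were higher as deposited, and 27 to 30 were lower and 2 to 4 higher with any 1 array left out. Over all genes 7516 lower became 1579 with spike-in scaling and 2746 as deposited, and the share of higher among called genes went from 35.5% to 78.2%, 66.8% and, after median centring, 22.0%. The count of partner relations that passed went from 1 to 2 after either kind of centring, 6 as deposited and 10 with spike-in scaling. It was 0 to 1 with any 1 array left out and 0 without the 4 arrays with neighbouring tissue. After median centring Anxa6 with S100a6 no longer passed in TH-MYCN+/+ ganglia, and the 2 that passed were wild-type relations. Anxa1 and S100a11 in wild type turned from r = -0.08 to 0.79 with spike-in scaling. Spike-in scaling ended the calls of 15 related genes. The causes were not tested. The AP-1 letters stood in 4.46% of promoters, and in 6.75% with any base in the middle. With the replicate number as a block, where wild-type replicate 7 has no partner and carries no weight, the members' median was -1.31, and 29 related genes were lower and 3 higher. The number does not pair the arrays: same-numbered arrays deviated with correlations of -0.31 to -0.08, and 0 of 6 were over 0.1. Signal near background limits Anxa10, S100a8, Htr1d, Trim72 and Myof.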

Other observations

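S100a6 and S100a10 lie in a cluster of S100a genes on chromosome 3 of the mouse (RefSeq, GRCm38.p6), and neighbours of this cluster were looked at after the values had been seen. Of 15 measured S100a genes from S100a1 to S100a10, 10 were lower and 0 higher in TH-MYCN+/+ ganglia by limma, with a median log2 difference of -1.25. This count includes S100a6 and S100a10, which were chosen for that difference, so it is no test of those 2. Of the 15 S100a genes, 12 were above background on 6 or more arrays. Of 49 other measured protein-coding genes between them, mostly genes of the skin barrier, 6 were lower and 1 higher, with a median of -0.02, where 34.3% of all genes were lower. Only 8 of these neighbours were above background on 6 or more arrays, of which 2 were lower and 1 higher. The 2 were Lor, loricrin (adjusted p = 8.87e-05), and Tchh, trichohyalin, itself an S100-fused protein (-1.94, adjusted p = 2.06e-04), and Prr9 was higher (0.67, adjusted p = 0.00277). S100a2, which is in none of the lists, was lower by a smaller amount (-0.63, adjusted p = 1.71e-04).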
